A study of Drosophila melanogaster with 2 samples.

Results

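The regions described here are 237 intergenic binding peaks of CG31365 that lie away from gene starts in embryos of Drosophila melanogaster. They come from 2821 IDR peaks, those kept by an irreproducible discovery rate filter, which favours peaks ranked alike in both replicates. The 200 IDR peaks of highest signal value were left out. Of the other 2621, a peak was taken when its summit, the position of highest signal, lay more than 1000 bp from any transcript start site (TSS) and inside no gene body. That gave 9.04% of the 2621 peaks, beside 1628 promoter peaks within 1000 bp of a TSS and 756 peaks inside gene bodies. Signal value, rank and position chose these regions, so they are given as descriptions and nothing is tested on them.

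The series held chromatin from whole embryos, 0 to 24 h old and of both sexes, of a transgenic fly line that stably carries CG31365 fused to GFP at its C terminus. Binding was mapped by ChIP-seq, in which DNA bound by a protein is pulled down and sequenced, in 2 biological replicates of 1 group, numbered 2 and 3. No control library, untagged line or other group was analysed here, and 1 free-text label calls both libraries input controls while their other labels describe ChIP against CG31365. Whole embryos mix all cell types, so a peak cannot be assigned to a tissue, and read depth was unknown. Signal values are the authors' own per-peak enrichment values and have no replicate error. All intervals below are 95% intervals that cover counting of regions only, and neighbouring regions are not independent.

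Sequence between genes carries enhancers, which act on promoters from a distance, and insulators, which separate neighbouring regulatory domains. In the compact fly genome the gene beside such an element is often, but not always, the gene it acts on. Naming a flanking gene below therefore says where a peak lies and not which gene it regulates. The 7-base word AAGCAGT, found earlier under the highest CG31365 peaks of these data, served as the reference word, and both strands were searched.

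Some of the summits with the word are shown first, because they carry the base pattern that the series' highest peaks share. Those printed hold the word within 30 bases of the summit. At some other holders it lay farther off, as at 95 bp between mgl and CG32700. Each line gives 61 bases of the plus strand (RefSeq copy of the BDGP6 assembly, dm6) centred on the summit, in lower case with AAGCAGT, or ACTGCTT where it lies on the minus strand, in capitals. The windows are chrX:17924213-17924273, chr2L:16198263-16198323, chr2L:13332907-13332967, chr3R:6010192-6010252, chr3R:7041083-7041143 and chr3R:17551284-17551344, in that order.
CG6847/Sh: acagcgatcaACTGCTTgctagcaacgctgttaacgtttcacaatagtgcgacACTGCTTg
CR44735/CR44736: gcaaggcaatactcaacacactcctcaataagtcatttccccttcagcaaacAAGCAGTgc
hbt/CG16826: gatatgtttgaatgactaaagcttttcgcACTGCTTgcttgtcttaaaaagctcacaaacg
Rm62/CG10280: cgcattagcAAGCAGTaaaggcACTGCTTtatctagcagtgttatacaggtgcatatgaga
CR44933/Sodh1: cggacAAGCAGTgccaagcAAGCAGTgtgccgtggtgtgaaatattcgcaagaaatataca
Prx3/Hmx: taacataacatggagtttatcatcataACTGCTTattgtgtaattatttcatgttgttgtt
The windows beside Sh, Rm62 and Sodh1 held 2 copies each, and the copy between Prx3 and Hmx lay 0 bp from the summit.

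An 8-base word, AGATGGCG, stood out at these peaks after all 7-base and 8-base words had been counted, so it is shown as a word picked from these data. It resembles the core of sites bound by the insulator protein CTCF in flies, as background. Its reverse complement, CGCCATCT, also holds GCCAT, the core listed below for Pleiohomeotic, a Polycomb recruiter. Binding of CTCF or Pleiohomeotic was not measured here. The windows printed hold the word within 30 bases of the summit, while at some other holders it lay farther off, as at 81.5 bp between CG12362 and Ir67b. The windows, again 61 plus-strand bases with AGATGGCG or CGCCATCT in capitals, are chr3L:5869790-5869850, chr3R:4969367-4969427, chr3R:21487950-21488010, chr2L:4345842-4345902, chrX:7710955-7711015 and chr3L:13227648-13227708.
vn/CG5568: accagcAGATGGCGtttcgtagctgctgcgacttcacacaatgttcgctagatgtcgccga
Jhbp1/CG14662: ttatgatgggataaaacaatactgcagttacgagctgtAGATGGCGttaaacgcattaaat
Fancm/CR44032: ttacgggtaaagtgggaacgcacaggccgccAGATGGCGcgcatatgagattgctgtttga
Atet/CR44697: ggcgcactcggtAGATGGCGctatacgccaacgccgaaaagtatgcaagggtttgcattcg
CHES-1-like/CG15478: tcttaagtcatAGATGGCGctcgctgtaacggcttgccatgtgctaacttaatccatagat
CR45098/caps: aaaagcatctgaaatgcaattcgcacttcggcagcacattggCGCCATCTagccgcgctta

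Among the highest of the 237 peaks, once the 200 highest IDR peaks are left out, were summits with neither word. The next windows, of 50 bases to each side, chr3R:10675267-10675367 and chr2L:7641951-7642051, are centred on the summits of ranks 224 and 233 and are shown because they held neither AAGCAGT nor AGATGGCG within 100 bp.
CR44018/CG6465: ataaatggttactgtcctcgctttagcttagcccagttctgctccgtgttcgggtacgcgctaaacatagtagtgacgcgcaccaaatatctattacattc
CR44800/Slob: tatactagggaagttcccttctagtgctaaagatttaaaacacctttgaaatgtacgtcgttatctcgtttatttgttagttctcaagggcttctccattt

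Across the 237 peaks the signal value had a median of 168, with quartiles of 142 and 242 and a range of 124 to 707. The highest intergenic peak left out by the rule lay near lncRNA:CR44282, with a signal value of 8838 at rank 3. The lowest-ranked intergenic peak among the 200 left out lay near stg1 at rank 186, with a signal value of 784. At the TSS limit, a peak at 999 bp from lncRNA:CR42651 was left out and a peak at 1011 bp from RabGGTa was taken. At the lower end, the peak of lowest signal taken (124.17) lay in the gap between tRNA:Ile-TAT-1-2 and CG13898, and the highest pooled intergenic peak outside the IDR list had a signal value of 123.876. The set therefore runs continuously into the peaks on the far side of each limit.

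The 20 intergenic peaks of highest signal lay beside genes of varied function, and those described here were picked for having a known role. The highest, between blw and CycB, the mitotic cyclin B gene, had a signal value of 707 at rank 210, with 370 in replicate 2 and 337 in replicate 3. The peak beside CG6465 had a signal value of 674, with 398 in replicate 2 and 273 in replicate 3. Between CR44800 and Slob, which encodes a protein that binds the Slowpoke potassium channel, the signal value was 649, with 359 in replicate 2 and 249 in replicate 3. These 3 leading peaks were higher in replicate 2 than in replicate 3.

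The next peak, between CG6847 and the Shaker potassium channel gene Sh, had a signal value of 615. It reached 436 in replicate 2 and 186 in replicate 3, the strongest lean to replicate 2 among the 4 highest. A peak 3756 bp downstream of the start of CG31668 had a signal value of 602, with 285 in replicate 2 and 316 in replicate 3. Here the order of the replicates was the other way round.

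Further down the same 20, a peak 3914 bp upstream of zfh2, a zinc finger homeodomain gene on the fourth chromosome, had a signal value of 550, with 304 in replicate 2 and 247 in replicate 3. For foxo, the forkhead factor of the insulin pathway, the upstream peak at 3349 bp had a signal value of 547, with 302 and 246 in replicates 2 and 3. Both lay in gaps between divergent genes, which point away from each other. The peak 1866 bp upstream of disco-r, a zinc finger gene, had a signal value of 512, with 354 and 168 in replicates 2 and 3, and lay in a gap of 42156 bp.

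Between vn, which encodes the EGF receptor ligand Vein, and CG5568 a peak had a signal value of 481, with 257 in replicate 2 and 219 in replicate 3. The peak nearest rux, which encodes an inhibitor of cyclin A kinase, had a signal value of 470, with 318 and 159 in the replicates. Between the forkhead segmentation genes slp1 and slp2 the signal value was 458, with 223 and 230. At slp1 and slp2 the replicates were thus nearly level, unlike at rux. The last of the 20, beside the muscle Z-disc gene Zasp52, had a signal value of 437, with 271 and 164.

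Most of the peaks were found again in each replicate's own list of 30000 peaks. A summit within 100 bp was present for 234 of 237 in replicate 2 (98.7%) and for 227 in replicate 3 (95.8%). Both lists held one for 225 (94.9%, Wilson interval 91.4 to 97.1), and for 95.8% of all 2621 IDR peaks outside the highest. This share was near that of the whole list, and the IDR step itself favours such peaks. Among the 237 intergenic peaks next in rank below the IDR list it was 89.5% (84.9 to 92.8), and among all 4601 lower-ranked intergenic peaks 28.5%. A low-ranked peak here is a peak of the pooled list that overlaps no IDR peak.

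Replicate 2 gave somewhat higher signal values than replicate 3. The medians were 94.8 and 80.5, and the log2 ratio of replicate 2 to replicate 3 had a median of 0.22, with quartiles of -0.08 and 0.60. Over the 225 peaks in both lists Spearman's rho was 0.589 and Pearson's r of the log2 values 0.697, as descriptions over peaks chosen partly for being ranked alike. Between CR44730 and CR44731 the ranks differed most, with signal values of 19.5 in replicate 2 (rank 23931) and 79.0 in replicate 3 (rank 1793). In the other direction, the peak between CR44526 and SrpRbeta had 103 in replicate 2 (rank 1419) and 35.9 in replicate 3 (rank 6965). The peak 1014 bp upstream of caps, a cell adhesion gene, had 78.9 in replicate 2 (rank 2247) and 35.9 in replicate 3 (rank 6977).

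Of the 12 peaks without a summit within 100 bp in both lists, the peak between tRNA:Phe-GAA-1-7 and the micropeptide gene tal-1A lacked one in each list. Another 2 lacked one in replicate 2 alone, beside the T-box gene Doc2 (signal value 156) and in the gap between NijA and CG43245 (signal value 145). The remainder lacked one in replicate 3 alone and included peaks in the gap after ems, a head gap homeobox gene, and beside mid, a T-box gene. Within 200 bp, 99.6% of the 237 peaks had a summit in both lists, so most of the 12 had one slightly farther off.

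AAGCAGT lay within 100 bp of the summit in 20 of the 237 peaks (8.44%, Wilson interval 5.53 to 12.7), against 8.66% of all 2621 IDR peaks outside the highest. That share was near this background, near the 7.28% of peaks inside gene bodies (5.63 to 9.35) and near the 9.34% of promoter peaks (8.02 to 10.8). In low-ranked intergenic peaks it was 2.20% (1.81 to 2.66), and in tiles of eligible intergenic sequence as long as the search window 2.40%. Among the next-ranked intergenic peaks it was 4.64% (2.61 to 8.12), whose interval overlaps that of the 237. More than 1 copy lay at 6 of the peaks (2.53%). Of the 26 copies in all, 8 lay within 20 bp of the summit (30.8%, 16.5 to 49.99), against 48.9% of copies at gene-body peaks (38.8 to 59.0) and 21.1% of copies in the tiles.

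AAGCAGT was found under the highest peaks of these data, so a high share there follows from the choice of word. The contrast with the 200 highest peaks was large. Of the 31 intergenic peaks away from start sites among them, 30 held the word (96.8%, 83.8 to 99.4), while 116 of the other 169 did (68.6%, 61.3 to 75.2). Below rank 200 the share at intergenic peaks was 15.4% down to rank 500 (4 of 26), 11.1% from there to rank 1000 (4 of 36) and 3.45% from there to rank 2000 (3 of 87). The remaining ranks, down to 2821, held it in 9 of 88 (10.2%, 5.47 to 18.3), against 5.32% of the other IDR peaks of those ranks (3.92 to 7.19). The word was therefore not steadily rarer down the list, and its interval at the lowest ranks overlaps the one at every higher band below rank 200.

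**Figure D1:**
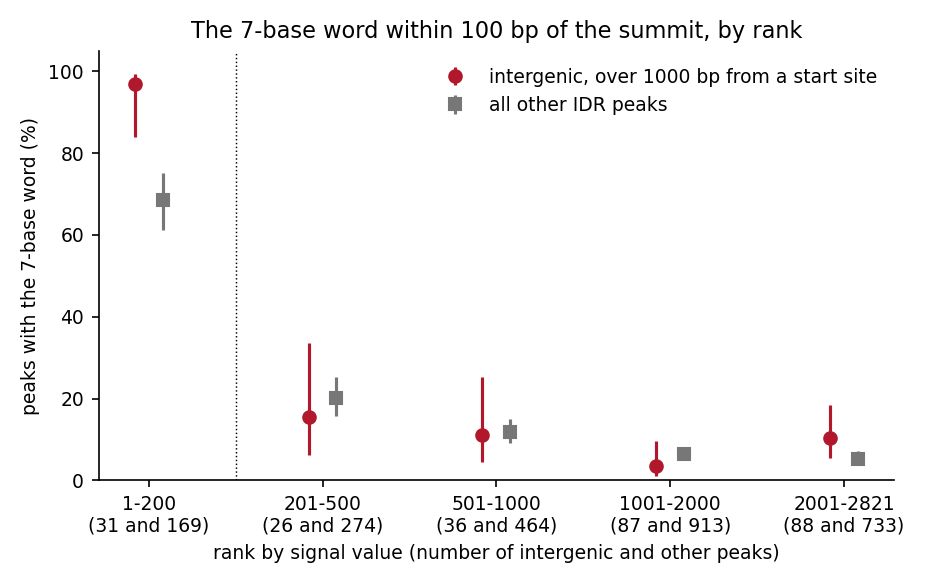
Share of peaks with AAGCAGT (the 7-base word) within 100 bp of the summit, in percent, by rank of signal value, for intergenic peaks over 1000 bp from a start site (red) and all other IDR peaks (grey); bars are 95% Wilson intervals and the dotted line marks the 200 highest peaks, which are not among the 237. Intergenic peaks fall from 96.8% in the 200 highest to 15.4% in the next band, down to rank 500. The word was found under the highest peaks of these data, so the first share follows from its choice.

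The holders of the word ranged from a signal value of 615, beside Sh, to 127, between MME1 and Rab30. Next after Sh came the gap between CR44785 and CR42696 with 556, then disco-r with 512, then the gap between CR44735 and CR44736 with 447. The windows printed above show the word within 30 bases of the summit for the Sh peak and the CR44735 peak, whereas at disco-r it lay 64 bp away. Middle-ranked holders lay beside Rm62, an RNA helicase gene (269), and KCNQ, a potassium channel gene (212). Holders of low signal lay beside mirr, an Iroquois homeobox gene (148), Sox100B, a Sox factor gene (133), and the gap between Prx3, a peroxiredoxin gene, and the homeobox gene Hmx (128).

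Peaks with the word leaned to replicate 2. The log2 ratio of replicate 2 to replicate 3 had a median of 0.78 at the 20 holders (quartiles 0.36 and 1.12) and 0.19 at the 205 others found in both lists (quartiles -0.13 and 0.54). It was above 0 at 18 of 20 holders (90.0%) and at 138 of the 205 others (67.3%). The exceptions were the peak beside CG14327 (156 and 159) and the peak upstream of Gr93a, a gustatory receptor gene (53.3 and 72.9). At the peak between CR44407 and CG6431 the values were 226 in replicate 2 and 85.8 in replicate 3. At the peak between hbt and CG16826 they were 204 and 84.1. The same lean was present at gene-body peaks, with medians of 0.69 with the word and 0.19 without it, and smaller at promoter peaks, with 0.39 and 0.20. Of the 30 holders among the 31 highest intergenic peaks all 30 were above 0, with a median of 0.75. This pattern was noticed after the values were seen and was not tested.

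**Figure D2:**
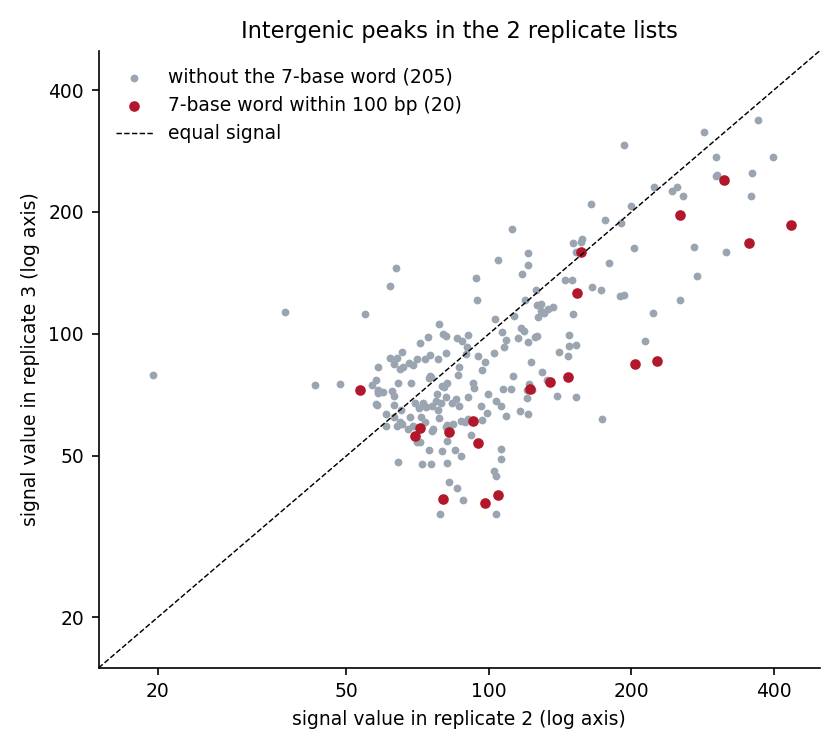
Signal value in replicate 2 (x axis, log scale) against replicate 3 (y axis, log scale) for the 225 intergenic peaks with a summit within 100 bp in both lists; red points hold AAGCAGT (the 7-base word), grey points do not, and the dashed line marks equal signal. Of the red points 18 of 20 lie on the replicate 2 side of the line, against 138 of 205 grey points.

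AGATGGCG, the word picked from these data, lay at 15 peaks (6.33%, 3.87 to 10.2). It lay at 2.65% of gene-body peaks (1.72 to 4.05), 1.78% of promoter peaks (1.24 to 2.55), 1.69% of next-ranked intergenic peaks (0.658 to 4.26) and 0.935% of low-ranked ones. The tiles held it in 0.532%. Because the word was chosen for its share at the 237 peaks, this difference is a description. None of the 237 peaks held both AGATGGCG and AAGCAGT, but with 15 and 20 holders few such peaks could occur, so this sets nothing apart. Of the 31 intergenic peaks among the 200 highest, 30 held AAGCAGT and 4 held AGATGGCG, so some of those held both. The CTCF core listed for comparison, AGGNGGC, which does not match AGATGGCG, lay at 5.49% of the peaks, against 6.90% of the tiles.

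The peaks with AGATGGCG began with those between vn and CG5568 (signal value 481) and between Jhbp1 and CG14662 (462), both printed above. They included the gap between the neighbouring Sox genes Sox21a and Sox21b (192, with 2 copies), the gap beside cv-c, a RhoGAP gene (246), and the gap after Fancm, a DNA repair helicase gene (214). Others lay beside Ir67b (296) and Gr89a (251). Their median log2 ratio of replicate 2 to replicate 3 was 0.57, with 14 of 15 above 0 (93.3%). At the peaks without the word it was 0.21, with 142 of 210 above 0 (67.6%). Gene-body and promoter peaks with the word had 18 of 19 and 23 of 29 above 0, against 67.1% and 66.3% without it. This was not tested.

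A further 2 words were picked after the values were seen. GTTACTT was among the 10 leading 7-base words by share relative to low-ranked intergenic peaks, and CAGTGTA was not. GTTACTT lay at 20 peaks (8.44%, 5.53 to 12.7), against 2.38% of gene-body peaks, 3.38% of next-ranked and 1.74% of low-ranked intergenic peaks. CAGTGTA lay at 27 (11.4%, 7.95 to 16.1), against 8.20% of gene-body peaks (6.45 to 10.4, which overlaps), 8.44% of next-ranked and 3.61% of low-ranked ones. Of its 30 copies 2 lay within 20 bp of the summit (6.67%, 1.85 to 21.3), against 20.5% of copies in the tiles. The window chr3R:16497518-16497578, between Cad89D and Gr89a, is shown because it held GTTACTT 1 bp from the summit and AGATGGCG on the minus strand in the same window; GTTACTT is in capitals.
Cad89D/Gr89a: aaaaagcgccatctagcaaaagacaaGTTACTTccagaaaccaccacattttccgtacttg
The intergenic CAGTGTA peaks did not lean to replicate 2, with a median log2 ratio of -0.04 and 12 of 27 above 0 (44.4%). Without the word 144 of 198 were above 0 (72.7%). At gene-body peaks with CAGTGTA 42 of 61 were above 0 (68.9%), against 67.8% without it. All 5 holders among the highest intergenic peaks left out by the rule were above 0. The difference was not tested.

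Known elements gave a mixed picture, each searched by its letters on both strands within 100 bp of the summit. The Twist E-box CATATG, bound by the mesoderm factor Twist, lay at 11.4% of the 237 peaks (7.95 to 16.1), against 10.3% of gene-body peaks, 5.90% of promoter peaks, 6.30% of low-ranked peaks, 8.02% of next-ranked peaks and 5.64% of tiles. TATAAA, the TATA box of core promoters, lay at 31.2%, against 189 of the 756 gene-body peaks, 27.6% of promoter peaks, 20.1% of low-ranked peaks, 26.6% of next-ranked peaks and 22.8% of tiles. AGGAC, the core of sites of the repressor Tramtrack, lay at 7.59% (4.86 to 11.7), close to the 5.95% of gene-body and 8.42% of promoter peaks, against 18.5% of low-ranked peaks, 11.8% of next-ranked peaks and 21.5% of tiles. GC content within 100 bp of the summit had a median of 38.3% at the 237 peaks, 38.3% at next-ranked peaks, 43.8% at low-ranked peaks and 41.3% in tiles. For each of these elements the intervals of the 237 and the next-ranked peaks overlapped. The part of GC content in the shares was not tested.

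The DNA replication-related element TATCGATA lay at 0.422% of the 237 peaks, 0.431% of tiles and 4.73% of promoter peaks. The core promoter motif GGTCACAC, bound by M1BP, lay at 0.422%, 0.271% and 3.62% of these. Both were thus near the level of the tiles at the 237 peaks. GAGAG, bound by GAGA factor, lay at 20.7% (16.0 to 26.3), against 28.7% of gene-body peaks, 31.3% of promoter peaks and 21.0% of tiles. It lay at 22.8% of low-ranked and 27.8% of next-ranked intergenic peaks (22.5 to 33.9, which overlaps). The Zelda site CAGGTAG lay at 1 peak (0.422%, against 0.880% of tiles) and the CREB site TGACGTCA at 0 of 237 (against 0.309% of tiles), both too few to set apart from the tiles. The core GCCAT of Pleiohomeotic, a Polycomb recruiter, lay at 35.4%, beside 35.4% of tiles. Every copy of AGATGGCG also counts as a copy of GCCAT, on the other strand.

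**Figure D3:**
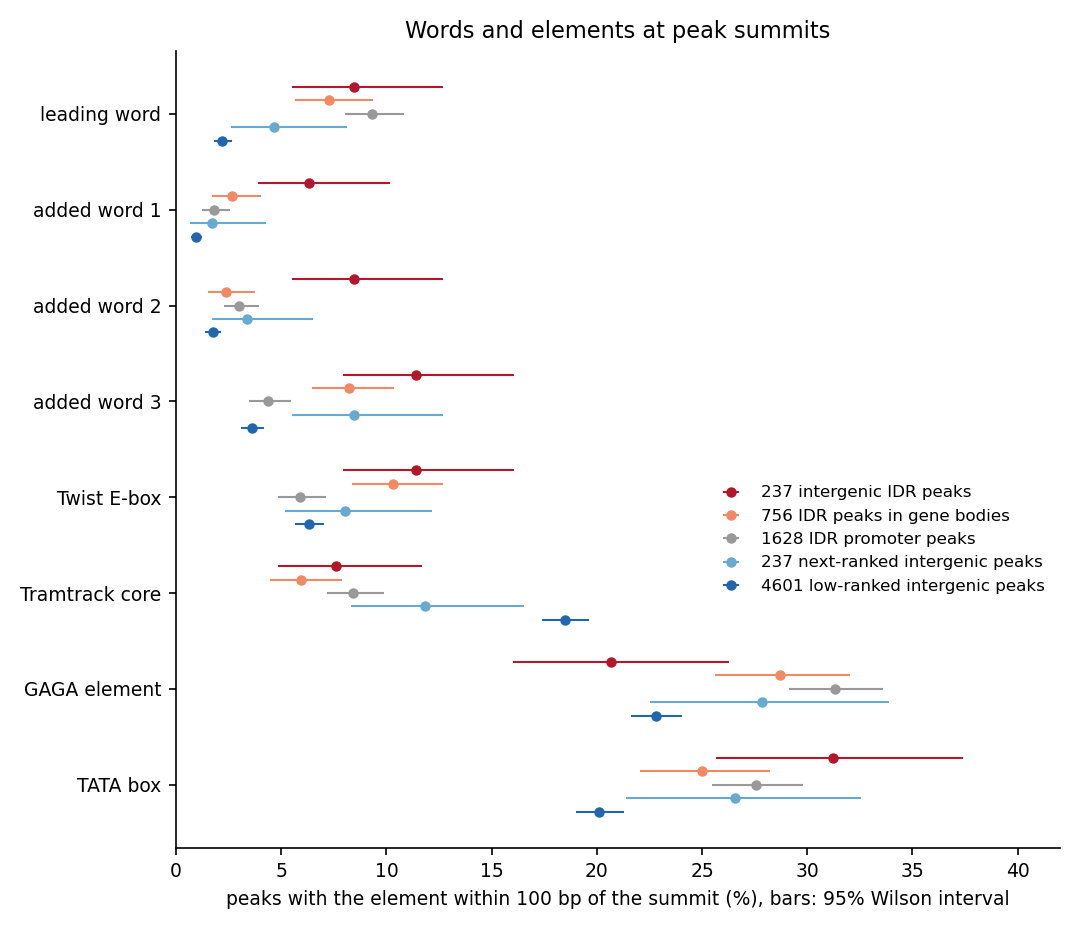
Share of peaks with each word or element within 100 bp of the summit, in percent (x axis), in 5 sets of peaks by colour, with 95% Wilson intervals as bars. The leading word is AAGCAGT, and added words 1 to 3 are AGATGGCG, GTTACTT and CAGTGTA, which were picked from their counts at the 237 peaks. The leading word lies at 8.44% of the 237 peaks, 7.28% of gene-body peaks and 9.34% of promoter peaks.

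The summits lay at a median of 3327 bp from the nearest TSS (quartiles 1791 and 5509), with the extremes at 1011 and 34617 bp. Low-ranked intergenic peaks lay at a median of 3879 bp and next-ranked ones at 3605 bp. The nearest TSS belonged to a protein-coding gene for 164 peaks (69.2%), to a noncoding RNA gene for 68 and to a tRNA gene for 5. The peak lay upstream of it in 134 (56.5%, 50.2 to 62.7). The farthest peak lay in the gap of 75047 bp between NijA, the ninjurin A gene, and CG43245, and had a signal value of 145.

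Gene ends were close more often than in the low-ranked set. Of the 237 peaks 62 (26.2%, 21.0 to 32.1) lay within 1000 bp of the end of a flanking gene, against 13.2% of low-ranked (12.3 to 14.2) and 21.1% of next-ranked intergenic peaks (16.4 to 26.7). The interval for the next-ranked set overlaps. The gaps holding the peaks had a median length of 10918 bp. Flanking genes were tandem for 116 peaks, divergent for 60 and convergent for 61, and the divergent share of 25.3% was close to the 23.9% of low-ranked peaks.

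Density differed among chromosome arms. The 237 peaks came to 7.03 per Mb of the 33.7 Mb of eligible sequence, which is intergenic and over 1000 bp from any TSS. Arm 2L held 59 (9.58 per Mb, exact Poisson interval 7.29 to 12.4), arm 3L 70 (8.33, 6.49 to 10.5) and arm 3R 51 (7.24, 5.39 to 9.52). Arm 2R held 29 (4.15, 2.78 to 5.96) and X 23 (4.69, 2.97 to 7.04). Low-ranked intergenic peaks were also denser on 2L (162 per Mb), 3L (147) and 3R (156) than on 2R (108) and X (101.4).

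The fourth chromosome went the other way. It held 5 peaks on 0.243 Mb of eligible sequence (20.6 per Mb, 6.68 to 48.0), while its low-ranked density was 57.6 per Mb, the lowest of the 6 arms. The density interval includes the 7.03 per Mb of all arms together. Those 5 were 62.5% of its 8 IDR peaks, against 9.04% of the 2621 IDR peaks outside the highest on all arms. The peak upstream of zfh2 had a signal value of 550, and another, with 162, lay 1608 bp upstream of fuss in the gap before the Pax6 gene toy. The other three lay in 1 gap between mir-9385 and CR43437, with signal values of 159, 167 and 238.

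**Figure D4:**
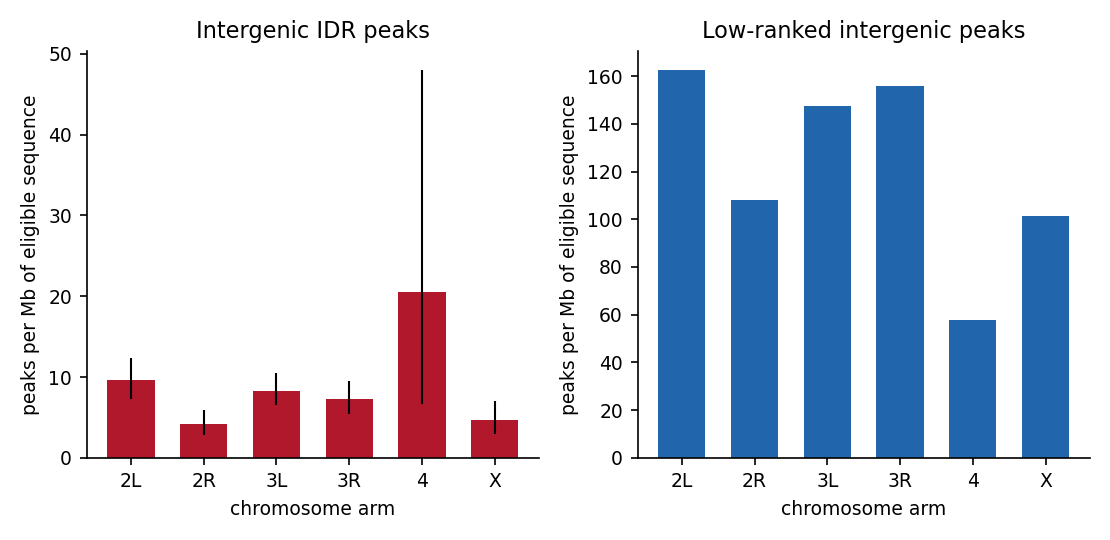
Peaks per Mb of eligible intergenic sequence by chromosome arm, for the 237 intergenic IDR peaks (left, bars with exact 95% Poisson intervals) and for low-ranked intergenic peaks (right). The fourth chromosome has 20.6 per Mb on the left from 5 peaks and 57.6 per Mb on the right.

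The nearest other IDR summit lay at a median of 9378 bp, and within 5 kb for 93 peaks (39.2%). The 237 peaks fell in 194 gaps between genes, and 29 gaps with 2 or more held 72 of them. The 237 next-ranked peaks were alike, with 200 gaps and 66 peaks in 29 gaps with 2 or more. Groups in which at least 3 peaks followed each other within 20 kb numbered 14 and held 59 peaks (24.9%). None of these 59 held AAGCAGT, which lay at 20 of the 237 peaks (8.44%). Neighbouring peaks are not independent, and the difference was not tested.

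The largest group, of 8 peaks over 50608 bp on 3L, ran from tRNA:Ile-TAT-1-2 past CG13898 to Sf3b3, a splicing factor gene, with signal values from 124 to 283. The group upstream of chinmo, which encodes a BTB zinc finger factor of neuronal temporal identity, had 6 peaks over 33526 bp on 2L. From RFeSP towards chinmo their signal values were 144, 236, 339, 378, 479 and 129, so they stood in rising order up to the last, which was low. In replicate 2 they were 75.7, 154, 179, 164, 250 and 108. In replicate 3 the first was 78.5, the third to the fifth were 150, 210 and 230, and the second and the sixth had no summit within 100 bp. More than 50% of the bases within 100 bp of the peaks of 479 and 129 were repeat-masked.

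The gap between NijA and CG43245 and the stretch after it held 6 peaks, with signal values from 145 to 264, over 39234 bp. Groups of 4 lay from aop, the ETS repressor Yan gene, to CG31668, whose highest peak reached 602, and around Rh5, a rhodopsin gene, with values from 128 to 318. Others of 4 lay from Ids to sty, which encodes the receptor kinase inhibitor Sprouty, and from corto, a chromatin protein gene, to RabGGTa. Groups of 3 lay beside robo2, an axon guidance receptor gene, and hry, the pair-rule gene hairy. Between Jhbp1 and CG14662 2 of the 3 summits (462 and 267) shared 1 interval, the only one repeated among the 237.

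**Figure D5:**
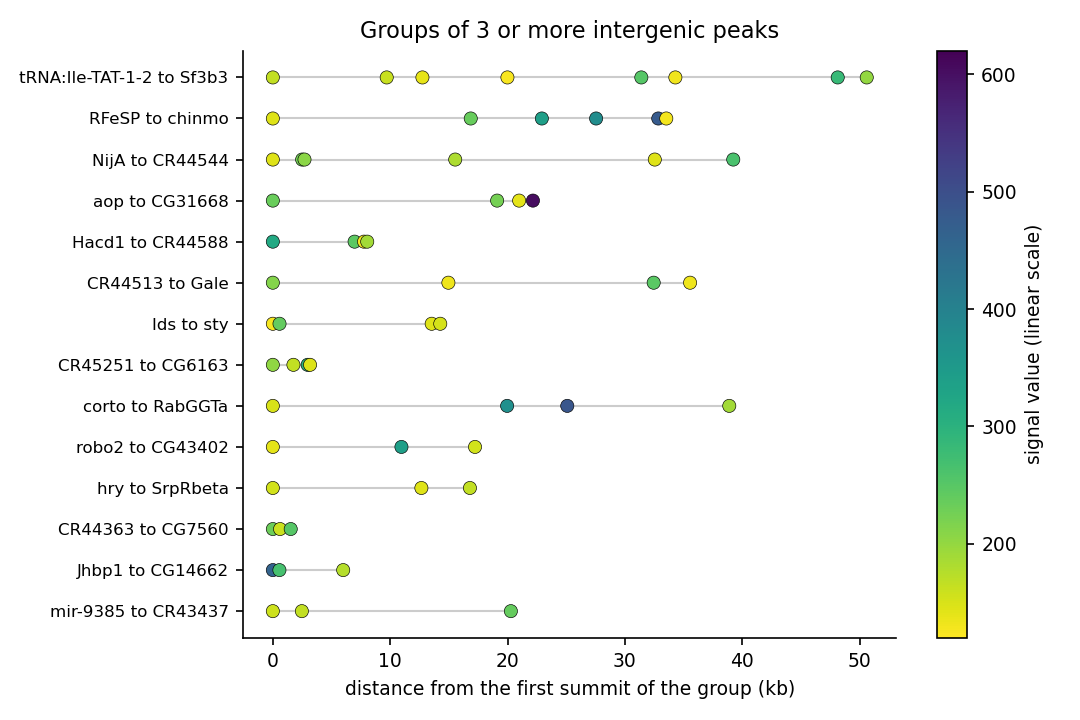
The 14 groups of 3 or more intergenic peaks, 1 group a row, by distance from the first summit of the group in kb (x axis), with point colour for signal value on a linear scale; rows are named by the genes at either end. The group from RFeSP to chinmo rises from 144 to 479 before a last peak at 129.

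Few of the peaks lay in sequence that can blur mapping. Summits of 2 lay inside features left out of the gene set, the transposable element H{}1735 near alphaTub84B (signal value 132) and the pseudogene CR42490 near MESR3 (131). A further 4 had more than 50% of the bases within 100 bp repeat-masked, which makes 6 in all (2.53%, 1.17 to 5.41), against 2.15% of low-ranked intergenic peaks. These 4 were the pair before chinmo, the second Jhbp1 summit and a peak between CR44091 and CR45564.

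Genes of the lists compared were counted as the nearest or a flanking gene of a peak. Signalling genes of the Wnt, Hedgehog, Dpp and EGF pathways, 1 of 22 lists, stood beside 7 peaks (2.95%, 1.44 to 5.97). The share was 1.00% of low-ranked (0.75 to 1.33) and 0.844% of next-ranked intergenic peaks (0.232 to 3.02, which overlaps). The 7 peaks included those at vn (481), aop (234), ptc, the Hedgehog receptor gene (219, at 5304 bp upstream), and the gap between Wnt4 and wg, a pair of Wnt ligand genes (160). The segmentation list, which also holds ptc, was met by 6 peaks (2.53%, against 2.91% of low-ranked and 3.38% of next-ranked). Among them were slp2 (458), the same ptc peak (219), D, the Sox gene Dichaete (209), and ems (168). Neural factor genes stood beside 5 (2.11%, against 3.06% of low-ranked and 3.80% of next-ranked), including Rx (221) and SoxN (179).

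Mesoderm and muscle regulators stood beside 4 peaks (1.69%, against 1.37% of low-ranked), namely slou, a muscle homeobox gene (146), tup (146), the FGF ligand gene ths (135) and mid (126). Neuronal recognition genes stood beside 2 (0.844%, against 2.65% of low-ranked and 1.27% of next-ranked), 18w (191) and DIP-delta (189). The insulin pathway list was met by 2 peaks, both upstream of foxo, with signal values of 547 and 142 (0.844%, against 0.196% of low-ranked and 0.422% of next-ranked). Nuclear tRNA genes stood beside 10 (4.22%, 2.31 to 7.59, against 2.63% of low-ranked and 3.80% of next-ranked), of which 5 lay in the 1 gap between tRNA:Ile-TAT-1-2 and CG13898, and long noncoding RNA genes beside 110 (46.4%, 40.2 to 52.8, against 48.4%). Odorant and gustatory receptor genes stood beside 4 (1.69%, against 1.80% of low-ranked) and cuticle protein genes beside 1 (0.422%, against 0.869%). Hox, Notch pathway, heat shock, snoRNA, 5S rRNA and insulator protein genes stood beside 0 of 237, but also beside at most 0.348% of low-ranked peaks each, so a count of 0 sets none of these lists apart.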

How the data were processed

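The 2 whole-embryo ChIP-seq libraries of 1 group were used through 4 narrowPeak lists on dm6. Per the file headers and listing, the authors deposited a peak caller's signal value (column 7), a −log10 q-value (column 9) and a summit offset in bp (column 10, an other unit). The q-value was constant in the IDR list and was not used to rank peaks. Per the labels, chromatin was sonicated to 200 to 800 bp. The submitters' file listing names a separate control file beside each library's alignments as the source of the peaks. The aligner, caller and IDR threshold are not given in the sources used here, and depth is unknown.

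Summits were start plus offset. Genes came from Ensembl release 115 (BDGP6.54), without pseudogenes or transposable elements, and sequence and repeat masking from RefSeq's copy of the same assembly. Words were searched within 100 bp of summits. Shares have Wilson intervals, which cover counting only. No test was run, since there was 1 group and peaks are not replicates. Genes were named by rule: the 20 highest peaks, the 5 highest with AAGCAGT, up to 4 per gene list, peaks at each limit, the farthest from a TSS, groups of 3 or more within 20 kb, and peaks whose replicate ranks differed most. Other peaks named were chosen after their values were seen. The members, lists and words were chosen with earlier results of these data known. The code was tested on simulated data. Scripts ran in Python 3.11.15 with pandas 2.3.3, numpy 2.4.6, matplotlib 3.10.9 and scipy 1.17.1.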

Additional observations from a re-analysis of the deposited data

How the results depend on the processing

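Of 89 values recomputed under alternatives, 77 stayed within the main interval or within 1.5 times the main count. Most alternatives kept many of the same peaks, so this agreement was partly set in advance. Density was taken over the 33.7 Mb of eligible sequence at the 1000 bp limit under every alternative. With a TSS limit of 500 or 2000 bp the median TSS distance moved from 3327 to 2076 and 4513 bp, since the limit sets the lower end. With the 200 highest peaks included the AAGCAGT share rose from 8.44% to 18.7% of 268 peaks. In the upper 50% of the IDR list by signal the number of peaks fell to 98, the density to 2.91 per Mb and peaks nearest a listed gene from 89 to 35. Summits in both replicate lists came to 82.7% within 50 bp and 99.6% within 200 bp. The words AAGCAGTG and CAAGCAGT lay at 4.64% and 4.22%. Median GC content was 36.6% within 50 bp and 40.4% within 200 bp of the summit.

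Leaving out a replicate, with the highest peaks of the other's own list in its place, gave 222 to 225 peaks, of which 185 without replicate 2 and 191 without replicate 3 lay within 100 bp of one of the 237. No paired analysis was possible because the series held 1 group. Depth is unknown, so no limit of detection can be given, and no control library was analysed.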

Other observations

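Among the 8-base words at 10 or more of the 237 peaks, ATGTTATA lay at 12 (5.06%), against 0.661% of gene-body peaks, 1.04% of low-ranked and 0.422% of next-ranked intergenic peaks. CTTAAAAG lay at 10 (4.22%), against 0.978% of low-ranked and 3.80% of next-ranked intergenic peaks. Both were picked from their counts and are values only. AGATGGCG also lay at 4 of the 31 intergenic peaks among the 200 highest.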
